A study of Mus musculus with 12 samples.

Results

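The replication licensing genes described here are Mcm2, Mcm3, Mcm4, Mcm5, Mcm6, Mcm7, Mcm10, Cdc6, Cdt1 and Gmnn, which are 10 of the 18193 mouse genes that a probe set of the array names alone. They were picked by gene symbol and not by a rule on their values, though earlier results of these data were known. A total of 27 probe sets carried these symbols, and each gene was read by the one with the highest mean over all 12 arrays. The remaining probe sets served as a check. All 10 genes passed the filter on dim probe sets, as did 13145 of the named genes.

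Gene expression was measured on 12 Affymetrix Mouse 430 2.0 arrays in CGR8 cells, a mouse embryonic stem cell line grown without feeder cells, and in cells derived from that line. There were 3 arrays for each of 4 stages. ES-LIF(+) cells were kept in 7.5% serum with leukemia inhibitory factor (LIF), the cytokine that holds mouse embryonic stem cells undifferentiated, and ES-LIF(-) cells had spent 48 h in the same serum with no LIF. Cardiopoietic cells (CP) and cardiomyocytes (CM) were both made from stem cells stimulated with a cocktail of BMP, TGFβ, IL-13, IL3, IGF1, VEGF, EGF, FGF and IL6, after which CP spent 5 days in medium with 3% serum and 30 ng/ml TNFα, and CM 9 days in medium with 20% serum. The methods describe a Percoll density gradient for purifying the derived cells. Serum, time in culture, cytokines and purification therefore changed together with the stage and cannot be told apart from it. The methods call the arrays of a stage biological replicates taken in independent samplings, while GEO's labels only number them. In these bulk samples fewer cells of a type and less RNA per cell cannot be told apart.

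Licensing prepares a replication origin to fire once in a cell cycle. The origin recognition complex, CDC6 and CDT1 load the ring-shaped helicase made of MCM2 to MCM7 onto DNA before S phase, geminin (Gmnn) binds CDT1 and blocks further loading, and MCM10 helps the loaded helicase to start unwinding. Cycling cells express these genes, many of them through E2F transcription factors, and cells that leave the cycle lose them. Mouse embryonic stem cells divide fast with a short first gap phase, and heart muscle cells cycle less as they mature.

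The promoters are shown because E2F is the factor family best known to control these genes. Whether E2F had a part in their changes between stages was not tested. The sequences are RefSeq promoters of the mouse assembly GRCm38.p6, which cover 250 bases before to 50 bases after a start site, and the arrays themselves carry no genome coordinates. A window was found for 8 of the 10 members, and these 8 genes had 9 windows because Mcm7 had 2. Both strands were searched for the E2F words TTTCCCGC, TTTCGCGC, TTTGCCGC and TTTGGCGC. At least 1 word stood in a window of 6 of the 8 genes (Mcm3, Mcm5, Mcm6, Mcm7, Cdc6 and Cdt1), whereas 704 of the 27025 genes with a promoter in the table (2.6%) had one. Counted by window, it stood in 6 of the 9, against 744 of all 32851 promoters (2.26%). The 11 words in the members' windows covered 9 separate stretches, since a word and its neighbour on the opposite strand overlapped in Mcm5 and in Mcm6. The windows of Mcm2 and Mcm10 held none of these letters, which says nothing of the factor. The CCAAT box, searched as CCAAT on both strands, stood in 6 of the 8 genes, against 41.1% of all genes with a promoter in the table (37.4% of all promoters). A stretch of 30 bases around 1 word of each of 5 genes follows, on the strand of the gene, with the word in capitals. In Cdc6 the word is on the opposite strand and so is printed as its reverse complement.
Mcm3, chr1:20820263-20820292 (minus strand): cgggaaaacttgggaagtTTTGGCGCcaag
Mcm5, chr8:75109345-75109374 (plus strand): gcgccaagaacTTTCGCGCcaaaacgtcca
Mcm7, chr5:138171849-138171878 (minus strand): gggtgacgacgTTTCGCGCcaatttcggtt
Cdc6, chr11:98908002-98908031 (plus strand): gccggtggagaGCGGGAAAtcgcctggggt
Cdt1, chr8:122568035-122568064 (plus strand): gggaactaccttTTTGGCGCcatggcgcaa

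Mcm6 had the most E2F words of any member, 3 in 2 stretches, so all 250 bases before its start site are shown, with the stretches in capitals. The first stretch joins a forward and a reversed word, which start 110 and 106 bases before the start site, and the second word starts 47 bases before it.
Mcm6, chr1:128359706-128359955 (minus strand): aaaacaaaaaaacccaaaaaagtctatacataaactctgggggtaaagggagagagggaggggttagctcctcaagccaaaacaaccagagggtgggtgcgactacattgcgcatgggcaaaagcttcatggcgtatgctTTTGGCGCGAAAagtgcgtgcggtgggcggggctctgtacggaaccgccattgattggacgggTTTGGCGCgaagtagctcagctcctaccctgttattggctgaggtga

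All 10 genes changed across the 4 stages in limma's moderated F test (adjusted p of 5.86e-09 or less), where 73.1% of all tested genes did. Their signals were high in ES-LIF(+) and ES-LIF(-) cells, lower in CP and lowest in CM. Of the 10 genes, 9 were called lower and none higher in CP against ES-LIF(+), against 13.3% of all tested genes lower and 18.7% higher. All 10 were lower in CM than in ES-LIF(+) (background 23.9% lower, 25.7% higher) and all 10 were lower in CM than in CP (background 10.4% lower, 9.04% higher). After 48 h without LIF none was called in either direction, where 3.68% of all genes were lower and 4% higher. A call here means a Benjamini-Hochberg adjusted p under 0.05 over all tested probe sets of that comparison, from 1 limma fit of the 12 arrays, and a fold above 1.5. Fold changes are differences of mean log2(signal + 16), and signals are linear values on an arbitrary scale, which can be compared between stages for 1 probe set but not between probe sets.

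The median log2 fold change of the 10 genes was -0.09 in ES-LIF(-), -0.95 in CP and -1.79 in CM, each against ES-LIF(+), and -0.80 in CM against CP. Over all tested genes these medians were 0.03, 0.04, 0.06 and -0.04. On every array of CP each of the 10 genes read below every ES-LIF(+) array, a separation seen downward in 29.8% of all tested genes, and on every array of CM each read below every CP array, as 28.1% of all tested genes did. The comparisons with ES-LIF(+) share the same 3 control arrays and those with CP share the same 3 CP arrays, so they are not independent of each other.

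**Figure D1:**
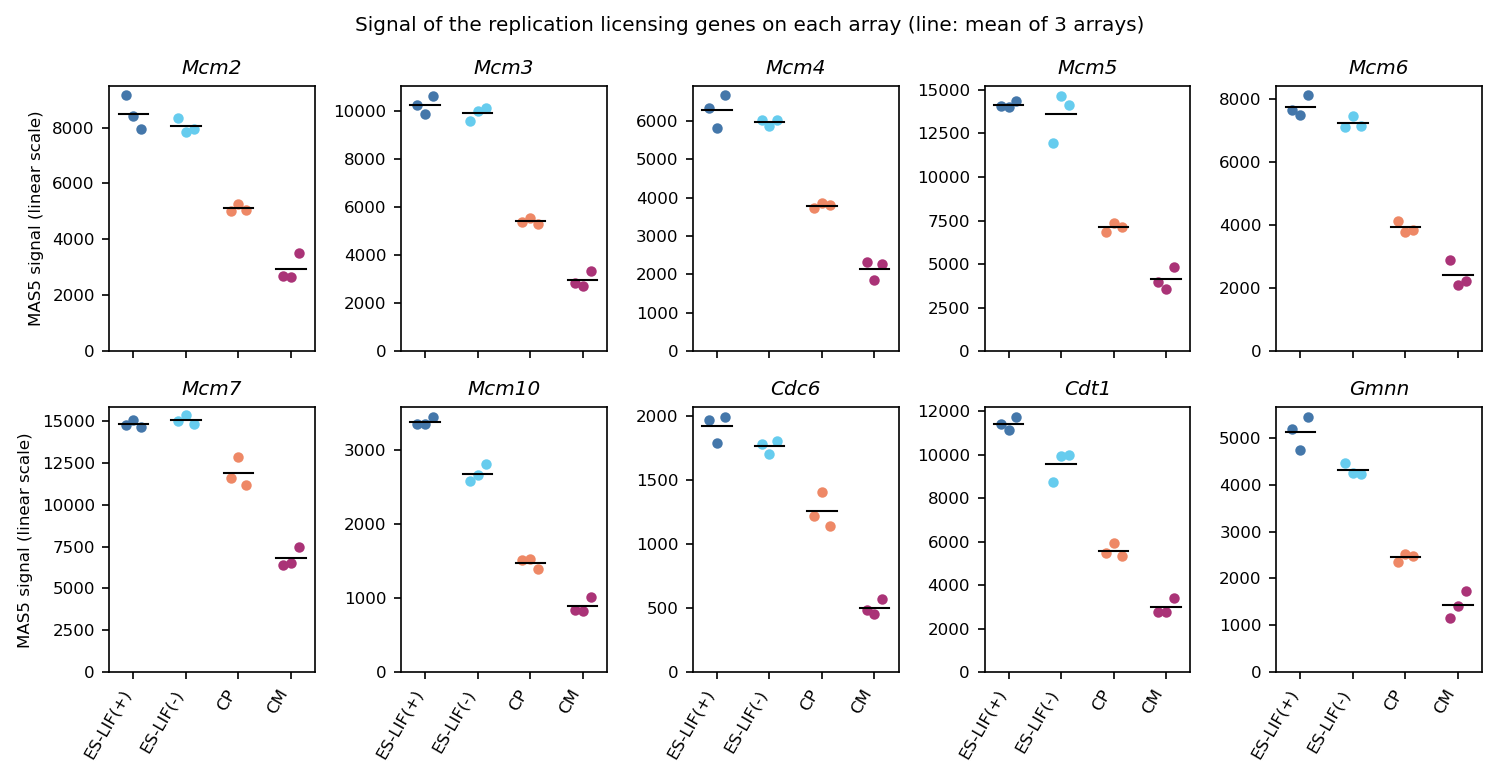
Linear MAS5 signal (y axis, from 0) of each licensing gene on the 12 arrays by stage (x axis), 3 points a stage, with the stage mean as a line. For all 10 genes the CP points lie below the ES-LIF(+) points and the CM points below the CP points.

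MCM2 to MCM7 form the hetero-hexameric helicase, with 1 copy of each subunit. For Mcm2 the signals were 9161, 8406 and 7934 on the ES-LIF(+) arrays, 8351, 7824 and 7943 on ES-LIF(-), 5021, 5271 and 5058 on CP and 2682, 2670 and 3512 on CM. Both stem cell stages overlapped, whereas CP and CM each stood apart, with the third CM array above the other two. Against ES-LIF(+) the log2 fold change of Mcm2 was -0.73 in CP (SE 0.09, adjusted p = 1.65e-05) and -1.53 in CM (adjusted p = 2.69e-09).

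Mcm5 read 14047, 14027 and 14380 on the ES-LIF(+) arrays, 11968, 14670 and 14147 on ES-LIF(-), 6855, 7383 and 7144 on CP and 3948, 3580 and 4818 on CM. The first ES-LIF(-) array was below the rest of both stem cell stages and the other two lay within or above the ES-LIF(+) range. Signal in CP was 49.6% lower than in ES-LIF(+) (log2 fold change -0.99, SE 0.10, adjusted p = 1.22e-06), and in CM 71.1% lower (log2 fold change -1.79, adjusted p = 7.94e-10).

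Mcm3, Mcm4 and Mcm6 followed the same order of stages. Mcm3 averaged 10237 ± 392 in ES-LIF(+), 9889 ± 288 in ES-LIF(-), 5412 ± 126 in CP and 2965 ± 326 in CM (SD, n = 3 each). Mcm4 averaged 6273 ± 433 in ES-LIF(+), 5967 ± 91.5 in ES-LIF(-), 3796 ± 64.4 in CP and 2152 ± 248 in CM. Mcm6 averaged 7750 ± 326 in ES-LIF(+), 7243 ± 200 in ES-LIF(-), 3924 ± 177 in CP and 2404 ± 430 in CM. These 3 genes had log2 fold changes of -0.92, -0.72 and -0.98 in CP and of -1.79, -1.54 and -1.70 in CM, all called.

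Mcm7 was the helicase subunit with the smallest fall in CP. It read 14719, 15055 and 14617 on the ES-LIF(+) arrays, 14962, 15357 and 14826 on ES-LIF(-), 11574, 12848 and 11195 on CP and 6385, 6514 and 7483 on CM. The CP arrays lay below all stem cell arrays without overlap, but at 19.9% below ES-LIF(+) the fall stayed inside the 1.5-fold limit (log2 fold change -0.32, 95% interval -0.47 to -0.17, adjusted p = 0.00198). In CM its log2 fold change was -1.12 against ES-LIF(+) and -0.80 against CP (adjusted p = 9.94e-07). Between the other helicase subunits the log2 fold change in CP ran from -0.99 to -0.72, and the difference of Mcm7 from them was not tested. Of the 4 probe sets of Mcm7, 3 gave between -0.30 and -0.42 in CP and the fourth, the dimmest, gave -0.93.

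Cdc6 and Cdt1 load the helicase. Cdc6, an ATPase related to the origin recognition complex, read 1975, 1796 and 1995 on ES-LIF(+), 1783, 1706 and 1812 on ES-LIF(-), 1225, 1408 and 1146 on CP and 491, 454 and 572 on CM. All CP arrays were below all stem cell arrays, and the highest CM array, at 572, was below the lowest CP array. The fall in CP was close to the limit for a call, at -0.61 log2 (95% interval -0.82 to -0.39, adjusted p = 0.000176). Without the third ES-LIF(+) array it was -0.58 and without the third CP array -0.54, both inside the 1.5-fold limit with adjusted p of 0.00115 and 0.00142 in limma. Between CM and CP its log2 fold change was -1.29 (SE 0.10, adjusted p = 2.97e-07), against -0.72 to -0.91 for the other 9 genes, and whether Cdc6 differed from them was not tested.

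Cdt1, which brings the MCM ring to the origin, read 11386, 11121 and 11731 on ES-LIF(+), 8753, 9931 and 9964 on ES-LIF(-), 5498, 5929 and 5356 on CP and 2759, 2787 and 3417 on CM. No stage overlapped its neighbour. Cdt1 was 50.9% lower in CP than in ES-LIF(+) (log2 fold change -1.03, SE 0.09, adjusted p = 2.08e-07) and 73.8% lower in CM (log2 fold change -1.93, adjusted p = 8.08e-11), which was the largest fall of the 10 genes in CM.

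Gmnn encodes geminin, the inhibitor of CDT1. It read 5189, 4742 and 5435 on ES-LIF(+), 4466, 4251 and 4230 on ES-LIF(-), 2341, 2520 and 2480 on CP and 1154, 1406 and 1730 on CM. No stage overlapped the next, and the CM arrays were spread more widely than the CP arrays. The inhibitor fell together with its partner. Gmnn had a log2 fold change of -1.06 in CP (SE 0.11, adjusted p = 2.16e-06), where Cdt1 had -1.03, and of -1.85 in CM (adjusted p = 2.13e-09), where Cdt1 had -1.93. No test of the difference between these genes was made.

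Mcm10, which acts when the loaded helicase is activated, had the largest fall in CP. It read 3353, 3356 and 3452 on ES-LIF(+), 2581, 2660 and 2818 on ES-LIF(-), 1512, 1528 and 1392 on CP and 842, 825 and 1016 on CM. The 4 stages did not overlap, and the ES-LIF(-) arrays lay below the ES-LIF(+) arrays. In CP the signal was 56.1% lower than in ES-LIF(+) (log2 fold change -1.19, SE 0.09, adjusted p = 4.62e-08), and in CM 73.4% lower (log2 fold change -1.91, adjusted p = 9.71e-11).

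**Figure D2:**
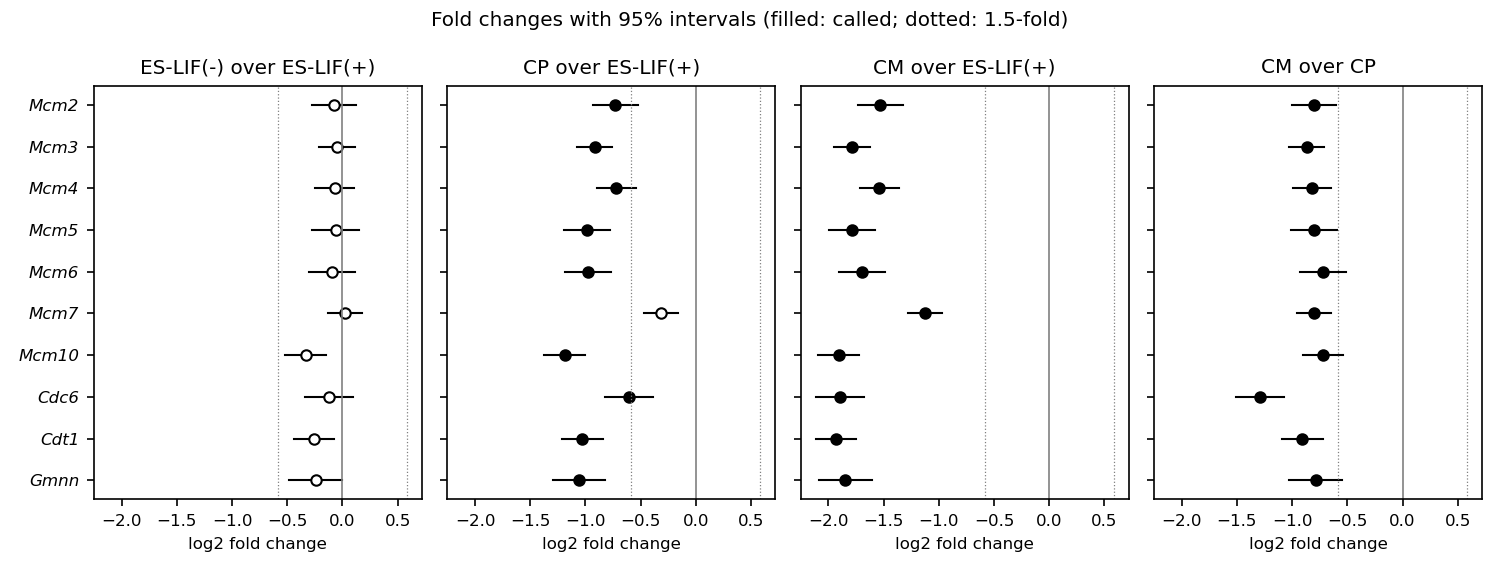
Log2 fold change (x axis) of each licensing gene (rows) in 4 comparisons, with 95% intervals from limma, filled points for called genes and dotted lines at 1.5-fold. In CP over ES-LIF(+) the Mcm7 point is open, at -0.32, and in CM over CP the Cdc6 point lies lowest, at -1.29.

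Withdrawal of LIF alone was compared in ES-LIF(-) against ES-LIF(+). None of the 10 genes was called, where 3.68% of all tested genes were lower and 4% higher. The log2 fold changes ran from -0.33 for Mcm10 to 0.02 for Mcm7, and 9 of the 10 were below 0. Over all tested genes the median was 0.03. Mcm10 had an adjusted p of 0.0195 and a 95% interval of -0.52 to -0.15, inside the fold limit, and it was the only gene with an adjusted p under 0.05. Unadjusted p in limma was under 0.05 for 3 of the 10. Shares of all tested genes below 0 or with such an unadjusted p were not counted, so these counts have no background here. Cdt1 gave -0.26 (adjusted p = 0.064) and Gmnn -0.24 (adjusted p = 0.19), while the helicase subunits lay between -0.10 and 0.02. In limma's fit the 95% interval of the brightest probe set of each helicase subunit reached no lower than -0.30, which leaves a 1.5-fold fall outside it. This did not hold for all other probe sets, since the interval of 1 of Mcm3 reached -0.59 and that of a dim one of Mcm5 reached -0.90.

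CP were also set against ES-LIF(-), the stage that preceded stimulation. Here 8 of the 10 genes were lower, none was higher and the background was 14.5% lower and 18.2% higher. Mcm7 and Cdc6 were the genes not called, with log2 fold changes of -0.34 (adjusted p = 0.00106) and -0.49 (adjusted p = 0.00101). The other 8 lay between -0.93 for Mcm5 and -0.65 for Mcm2 and Mcm4.

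**Figure D3:**
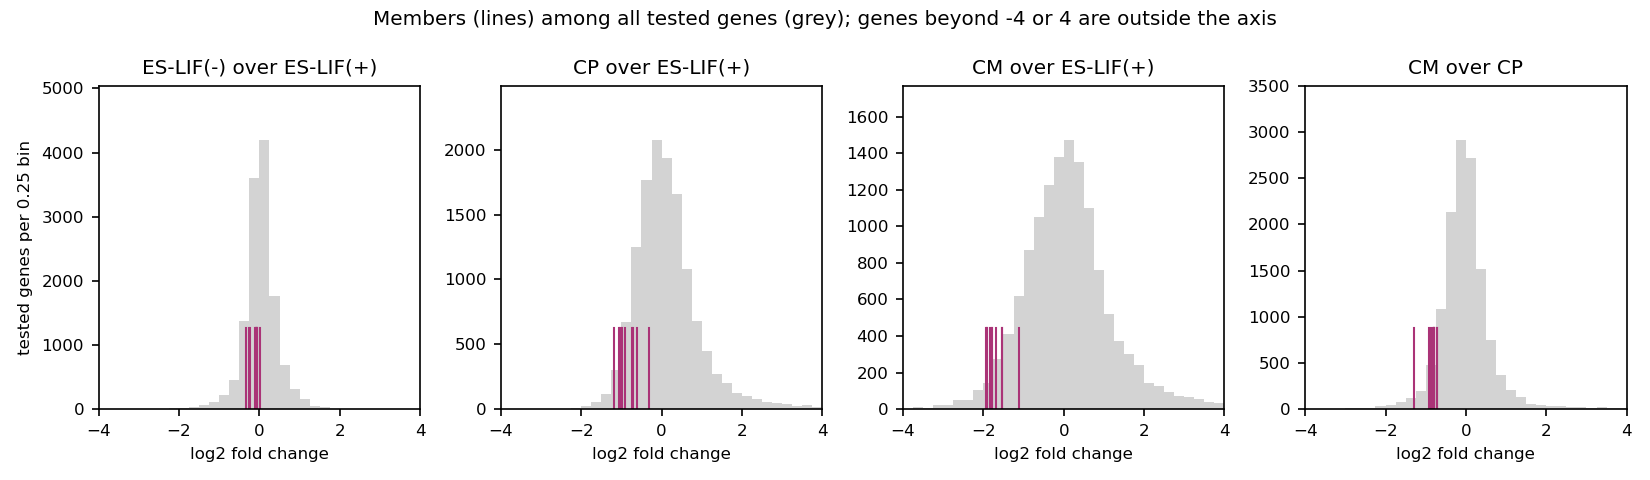
Number of tested genes (y axis, grey bars 0.25 wide) by log2 fold change (x axis) in 4 comparisons, with each licensing gene as a line. In CM over CP all 10 lines lie at or below -0.72, left of the median of all genes at -0.04.

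Of the 27 probe sets of the members, 25 were tested, and 1 dim probe set each of Mcm6 and Cdt1 was not. Cdc6 and Gmnn had 1 probe set each. Over the 25, 17 were lower in CP than in ES-LIF(+), 22 were lower in CM than in ES-LIF(+), 19 were lower in CM than in CP, and none was higher in these comparisons. In CP against ES-LIF(-) 15 were lower. In the same order of comparisons 13.3%, 23.9%, 10.4% and 14.5% of all tested genes were lower. Shares over all tested probe sets were not counted. The second probe set of Mcm2 gave a different picture from the brightest one. It read 5756, 5803 and 2465 on the CP arrays and 5471, 5278 and 5239 on ES-LIF(+), so that 2 CP arrays were above and the third well below every ES-LIF(+) array, with a log2 fold change of -0.29 in CP (adjusted p = 0.316) and of -0.48 in CM (adjusted p = 0.083). For Mcm10 the other probe sets, 2 dim ones with stage means of at most 164, passed no F test (adjusted p = 0.377 and 0.477 in limma). The dimmest probe set of Mcm3 gave 0.00 in CP and -0.65 in CM, where it was called, and its other 4 probe sets ran from -0.92 to -0.40 in CP. The second tested probe sets of Mcm4, Mcm6 and Cdt1 gave -0.95, -1.20 and -1.01 in CP, all called. The brightest probe sets of Mcm3, Mcm5 and Mcm7 are of the designs that the maker marks as able to bind transcripts of more than 1 gene. So are the second tested probe sets of Mcm2, Mcm4 and Mcm6, and some other probe sets of Mcm3 and Mcm7.

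**Figure D4:**
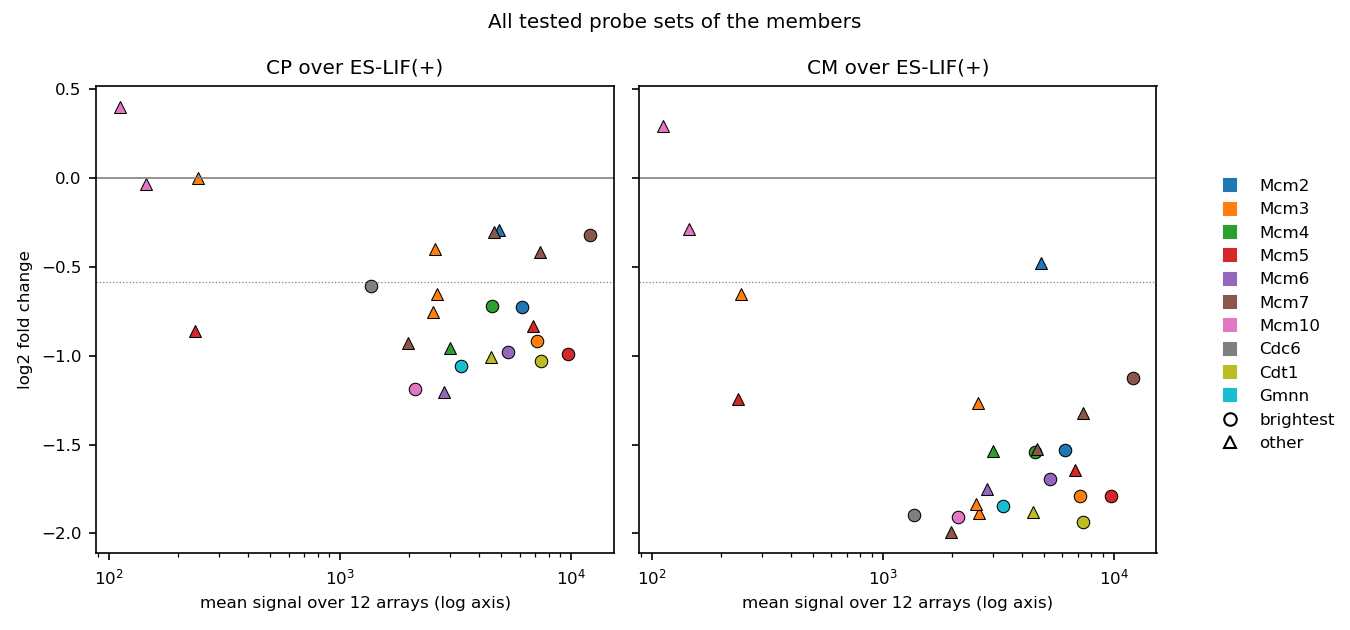
Log2 fold change (y axis) against mean signal over the 12 arrays (x axis, log scale) for the 25 tested probe sets of the members, with circles for the brightest of each gene and triangles for the others. The dim probe sets of Mcm10 at the left lie at -0.04 and 0.40 in CP and at -0.29 and 0.29 in CM. The second probe set of Mcm2 lies at -0.29 in CP and -0.48 in CM.

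Spread within a stage was largest in CM. The median SD of the 10 genes on the log2 scale was 0.06 in ES-LIF(+), 0.04 in ES-LIF(-), 0.06 in CP and 0.17 in CM. The third CM array held the highest CM value in 8 of the 10 genes and the second the lowest in 7. The second CP array was the highest in 9 genes and the third ES-LIF(+) array in 8. The 10 genes are therefore not taken as independent readings of an array. Shares of all tested genes with these ranks were not counted, and whether whole arrays differed in the same way was not tested. Over the 12 arrays the log2 values of any 2 of the genes had a Pearson correlation between 0.93 (Mcm6 with Mcm7) and 0.996 (Mcm3 with Mcm5). This describes 12 points that share stages and array scaling, and carries no p.

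The genes most like the mean of Mcm2 to Mcm7 over the 12 arrays were Dkc1 (r = 0.998), which encodes dyskerin of the telomerase and pseudouridylation complexes, Rfc5 (0.998), a subunit of the clamp loader, Xpo1 (0.998), a nuclear export receptor, Hells (0.997), a chromatin remodeller, and Nsun2 (0.996), an RNA methyltransferase. Those most like Cdc6 were Pou5f1 (0.994), which encodes the pluripotency factor OCT4, and H2az1 (0.994), a histone variant. Pou5f1 had log2 fold changes of -0.74 in CP and -2.62 in CM, both against ES-LIF(+). Cdt1 was matched best by Rpf1 (0.998) and Esco2 (0.995), Gmnn by Orc6 (0.995) and L3mbtl2 (0.994), and Mcm10 by Kif2c (0.998) and Mrpl45 (0.997). All of these are Pearson correlations of log2 values over 12 arrays, chosen as the highest of all tested genes.

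Other genes of the replication pathway were counted from 8 lists with 97 genes, of which 94 were tested. In CP 41 of the 94 were lower than in ES-LIF(+) and 1 was higher (13.3% and 18.7% of all tested genes), with a median log2 fold change of -0.53, against 0.04 over all tested genes. In CM 70 were lower and 1 was higher (23.9% and 25.7% of all tested genes), with a median of -1.06, against 0.06 over all, and between CM and CP 36 were lower and none higher (background 10.4% and 9.04%). In ES-LIF(-) none was lower and 1 was higher than in ES-LIF(+) (3.68% and 4% of all tested genes). In CP against ES-LIF(-) 46 were lower and 2 higher (14.5% and 18.2% of all tested genes). The list medians in CP were thus less low than the -0.95 of the licensing genes, a difference that was not tested.

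The origin recognition complex, which marks origins, had 3 of 6 subunits lower in CP and 4 of 6 in CM (13.3% and 23.9% of all tested genes). The log2 fold changes of Orc5 were -1.26 in CP (adjusted p = 4.85e-07) and -1.68 in CM. Those of Orc1 were -1.03 in CP (adjusted p = 3.77e-06) and -1.90 in CM. Orc4 had log2 fold changes of 0.06 and -0.04 and passed in neither. Among the partners of MCM loading, 2 of 6 were lower in CP and 4 of 6 in CM, against the same shares. Dbf4 and Cdc7, which form the kinase that triggers the loaded helicase, had log2 fold changes of -0.96 and -0.83 in CP and of -1.92 and -1.82 in CM, all called.

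Of the genes for helicase activation and firing, 7 of 14 were lower in CP and 11 of 14 in CM (13.3% and 23.9% of all tested genes). Gins1, a subunit of the GINS complex that joins the helicase, had a log2 fold change of -1.23 in CP (adjusted p = 7.94e-08), and Tipin, which with TIMELESS stabilises forks, had -0.97. In CM Timeless had -2.19 (adjusted p = 9.56e-12) and Tipin -1.98. Cdc45, the third part of the active helicase, gave -0.47 in CP, inside the fold limit, and -1.35 in CM, where it was called.

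Genes for turnover of CDT1 and geminin had 3 of 13 members lower in CP, not far from the 13.3% of all tested genes, and 7 of 13 in CM, where 23.9% of all tested genes were lower. Cul4b, a cullin scaffold of ubiquitin ligases, had a log2 fold change of -0.73 in CP and Skp2, the F-box protein that recognises CDT1, of -0.69. In CM the largest falls of this list were those of Fbxo5, an inhibitor of the anaphase-promoting complex (-1.61), and Dtl, the CDT1 receptor of the CUL4 ligase (-1.28). Cul4a had a log2 fold change of 0.18 in CP and 0.03 in CM, and Ddb1 gave 0.16 and -0.21.

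Replication fork enzymes were lower in 15 of 25 genes in CP and in 24 of 25 in CM (13.3% and 23.9% of all tested genes). Rfc4, a clamp loader subunit, had a log2 fold change of -1.15 in CP and Pola1, the catalytic subunit of polymerase alpha, of -1.09. In CM the largest falls of this list were those of Pole, the catalytic subunit of polymerase epsilon (-2.29), and Rfc5 (-2.10). The exception in CM was Pole3, with -0.11 (adjusted p = 0.338 in limma).

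The E2F and RB factors had 3 of 15 members lower and 1 higher in CP, and 7 lower and 1 higher in CM. In CP the lower count was near the 13.3% of all tested genes, and in CM it stood against 23.9%. The higher counts were below the background of 18.7% in CP and 25.7% in CM. The lower ones in CP were Lin54 (-1.19) and Lin9 (-1.16), subunits of the MuvB core that the DREAM complex holds at cell cycle promoters, and E2f4 (-0.71). In CM Lin54 gave -1.65 and Lin9 -1.45. The gene that rose was Rbl2, which encodes the p130 pocket protein of the DREAM complex in quiescent cells. It averaged 396 ± 38.7 in CP and 388 ± 17.0 in CM, against 174 ± 33.7 in ES-LIF(+) (SD, n = 3 each), with log2 fold changes of 1.12 (adjusted p = 0.000104) and 1.10 (adjusted p = 6.98e-05) in limma. E2f7, a repressor, rose by 0.60 in ES-LIF(-) against ES-LIF(+) (adjusted p = 0.00136), and E2f2, an activator, rose by 1.16 in CP against ES-LIF(-) (adjusted p = 0.0172) from a dim probe set, with 180 ± 25.5 in CP and 72.9 ± 19.4 in ES-LIF(-). E2f1 gave 0.00 in CP and -0.48 in CM, both inside the fold limit.

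S phase cyclins and kinases were lower in 5 of 8 genes in CP and in 7 of 8 in CM (13.3% and 23.9% of all tested genes). Ccne2, a cyclin of S phase entry, had a log2 fold change of -0.99 in CP and Cdk2, its kinase, of -0.71. In CM Cks2 gave -1.27 and Ccne1 -1.21. For nucleotide supply the counts were 3 of 7 lower in CP and 6 of 7 in CM, against the same shares. Log2 fold changes were -0.90 and -1.82 for Dut, a dUTPase, and -0.88 and -1.55 for Dctd, a dCMP deaminase.

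**Figure D5:**
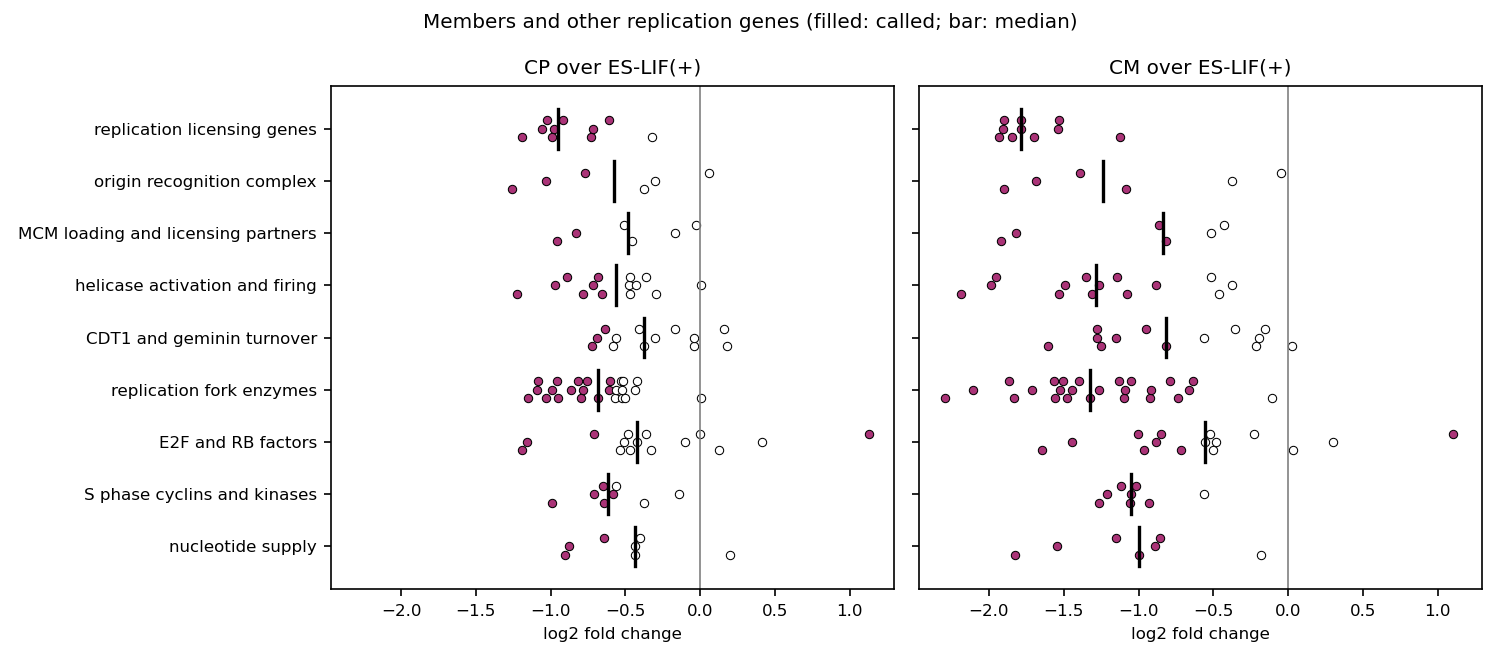
Log2 fold change (x axis) in CP and in CM over ES-LIF(+) for the 10 licensing genes and the 94 tested genes of 8 other replication lists (rows), filled where called, with a bar at each list's median. The licensing genes' medians lie at -0.95 and -1.79, and Rbl2 stands alone at the right of the E2F and RB row.

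Markers of several cell types moved with the stages, but not those of every type. Of all tested genes 18.7% were higher in CP and 25.7% in CM than in ES-LIF(+). All 9 cardiomyocyte markers were higher in CM than in ES-LIF(+) and 3 of 9 in CP. Their summed signal was 1793 to 2016 an array in CP, against 119319 to 132434 in CM and 663 to 817 in ES-LIF(+). Fibroblast and mesenchyme markers were higher in 8 of 8 genes in CP and in CM, with summed signals of 94053 to 100830 in CP, 50119 to 51202 in CM and 1058 to 1513 in ES-LIF(+). Smooth muscle markers were higher in 3 of 4 genes in CP and in 4 of 4 in CM, with summed signals of 28633 to 32904 in CP, 58445 to 67726 in CM and 3487 to 4728 in ES-LIF(+). Of the 4 tested markers of extraembryonic and definitive endoderm, 3 were higher in CP and all 4 in CM. Pluripotency markers were lower in 5 of 8 genes in CP and 8 of 8 in CM (13.3% and 23.9% of all tested genes). Summed erythroid markers ran from 686 to 17966 over the CM arrays. Endothelial markers were mixed, with 2 of 5 higher and 2 lower in CP, and 3 higher and 2 lower in CM. Of 4 neural markers 1 was higher in CP, and 2 were lower and 0 higher in CM. Of 3 tested macrophage markers 0 were called in CP and 1 was higher in CM. The part of these cell types in the fall of the licensing genes was not tested.

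The scaling of the arrays bears on the size of the falls. Median centring moved the log2 fold change of every gene by -0.28 in CP and -0.32 in CM against ES-LIF(+). Quantile normalization moved it by a median of -0.17 and -0.18 over all genes, but it made the fall smaller for 9 of the 10 licensing genes in CP and for 9 of 10 in CM, by at most 0.13 and 0.12. The exceptions were Mcm7 in CP, whose fold change stayed at -0.32, and Cdc6 in CM, which moved by -0.08. With median centring Mcm7 also passed in CP, at -0.60 (adjusted p = 1.25e-05), and with quantile normalization Cdc6 did not, at -0.55 (adjusted p = 0.000547). The direction in CP and in CM against ES-LIF(+) was down for all 10 genes under both scalings.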

How the data were processed

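RNA was measured on 12 arrays, 3 for each stage. Microarray Suite 5.0 was the software by which the authors derived an intensity for each probe set, and the deposited arrays each have a trimmed mean of 500. No further scaling was applied. Of 45101 probe sets, 64 controls were left out, and 26083 whose signal exceeded the array median on at least 3 arrays were tested. The platform table gave 1 gene for 34945 probe sets, several for 932 and none for 9160. Values were taken as log2(signal + 16) and fitted over all 12 arrays with limma 3.58.1 in R 4.3.3 (lmFit and eBayes with an intensity trend), with adjustment by Benjamini-Hochberg over all tested probe sets. The number of arrays limits the precision. The procedure was tested on simulated data.

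The members, lists and tests were chosen with earlier results of these data known. Text names all members, of each list at most 2 called genes with the largest change in CP and in CM and any called against its list's direction, and the genes most correlated with the members. Orc4, Cdc45, Cul4a, Ddb1, Pole3, E2f4 and E2f1 were named after their values were seen. Listed genes with no probe set that names them alone were not analysed here.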

Additional observations from a re-analysis of the deposited data

How the results depend on the processing

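With the replicate number as a block (replicate block) 9 members were lower in CP and 10 in CM than in ES-LIF(+), as without it. The block changed no other count of members. The labels do not say whether arrays of different stages with the same number belong together. Deviations of 18 same-numbered pairs of arrays correlated at -0.047 to 0.0954, and those of 36 other pairs at -0.0902 to 0.0529. Of the 12 arrays, 3 correlated best with their own number. GEO's record numbers of the arrays fall into separate runs. The replicate numbers of ES-LIF(+), ES-LIF(-) and CM follow these runs, and those of CP do not. A block on these runs was not tested. Of the counts of members under the alternatives, 268 were within 1.5 times the reported count and 5 moved. Many of the 268 were counts of 0 that stayed 0, which that limit cannot grade. With an adjusted p alone 1 member was lower in ES-LIF(-) (0 reported). With a fold above 2 the members lower were 3 in CP against ES-LIF(+), 0 in CP against ES-LIF(-) and 1 in CM against CP. With the mean over a gene's probe sets 5 were lower in CP against ES-LIF(-). That setting gave 6 lower in CP against ES-LIF(+), where 9 were reported, a change within the limit of 1.5 times. Leaving out 1 array gave 8 to 9 members lower in CP against ES-LIF(+). A sign turned for Mcm7 in ES-LIF(-) with quantile normalization (-0.0064), for Mcm3 with the mean over probe sets (0.0093), and for Mcm5 on leaving out 1 array (-0.121 to 0.026, highest without the first ES-LIF(-) array), none called; Mcm10 in CP against ES-LIF(-) was 0.057 with the mean over probe sets (adjusted p = 0.817 in limma). The mean over probe sets also ended the calls of Mcm2, Mcm3 and Mcm10 in CP against ES-LIF(+), of Mcm2 and Mcm3 in CP against ES-LIF(-), and of Mcm2 and Mcm10 in CM against CP. Quantile normalization ended those of Mcm2 and Mcm4 in CP against ES-LIF(-). Median centring added calls of Mcm7 and Cdc6 in CP against ES-LIF(-). The causes were not tested. The 10 members lower in CM than in ES-LIF(+) numbered 10 under every alternative run. Probe sets near the array median give the least precise fold changes.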
